A study of Mus musculus with 7 samples.

Results

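The genes described here encode the enzymes that bring fuel carbon into the mitochondrial matrix and oxidise it there: the pyruvate dehydrogenase complex and its kinases, the tricarboxylic acid (TCA) cycle with a pair of malate-aspartate shuttle enzymes, the carnitine shuttle, the spiral of fatty acid beta-oxidation, and the electron transfer flavoproteins. The members were taken by name from a list of 39 genes and not by a cut on their measured values. The list itself was chosen with earlier results of these data known. All 39 were found among the 55450 genes of the count table, and all 39 had counts in each of the 7 mice and entered the test. Whole-skin poly(A) RNA was sequenced from wild-type C57BL/6 male mice aged 24 months. After clipping, chemical depilation and an ethanol wipe of the back, the skin received 5 μM ABT-263 (navitoclax, a blocker of BCL-2 family proteins that keep cells from apoptosis) or the vehicle dimethyl sulfoxide (DMSO) alone, in each case under a semi-occlusive dressing, for 5 days. There was 1 library per mouse, from 4 mice after DMSO (numbered 480, 481, 482 and 483) and 3 after ABT-263 (476, 477 and 478), and values are given in that order. The question asked was whether transcripts of matrix enzymes changed with treatment, and whether they changed like those of the respiratory chain.

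Pyruvate dehydrogenase converts pyruvate to acetyl-CoA, and its kinases switch it off by phosphorylation. The TCA cycle oxidises acetyl-CoA and hands electrons to the respiratory chain of the inner membrane as NADH and succinate. Long fatty acids enter as carnitine esters and are shortened step by step by beta-oxidation, whose acyl-CoA dehydrogenases pass electrons to the chain through electron transfer flavoprotein. The proteins of this list are all encoded in the nucleus, and all but the cytosolic Mdh1 are imported into mitochondria. In dorsal skin, epidermis, fat and the thin sheet of skeletal muscle under the dermis all use them, and muscle and brown fat are known for especially high levels.

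The libraries held 20344364 to 26824123 counts after DMSO and 27325963 to 43562330 after ABT-263, so that each ABT-263 library was larger than each DMSO library. Spearman correlations between libraries, over genes with a count, were 0.941 to 0.957 within a treatment and 0.909 to 0.953 between treatments. Summed keratinocyte markers, which define skin epidermis, were present in all mice (20534 to 70964 CPM, counts per 1000000 of the library after scaling by the trimmed mean of M-values, TMM), with 1 of 12 higher and 1 lower by the test. Summed skeletal muscle markers were at 52505 to 101840 CPM after DMSO and 39359 to 53857 CPM after ABT-263, with 8 of 18 lower by the test and a median log2 fold change of -0.80. Macrophage and neutrophil markers summed to 492 to 2894 CPM after DMSO and 6468 to 12583 CPM after ABT-263 (9 of 14 higher), and dermal fibroblast markers to 4590.0 to 6639 CPM and 9091 to 14778 CPM (4 of 10 higher). None of 12 adipocyte markers tested passed the threshold in edgeR, although 9 had a log2 fold change above 0, with a median of 0.48. Of these markers, 2 had an unadjusted p under 0.05, and the Wald test of DESeq2 called 1, both upward. The adipocyte list summed to 1598 to 4312 CPM after DMSO and 1598 to 4768 CPM after ABT-263. Hair follicle markers (0 of 11 passing in edgeR, 1 lower at an unadjusted p under 0.05 and 1 with the Wald test) summed to 32.1 to 2837 CPM and 7.65 to 504 CPM, and of 12 sebaceous gland markers 1 (Mc5r) was lower. No defining marker of these lists was at 0 in every mouse, although Ucp1, the marker of brown fat, was too low to be tested and was read only in ABT-263 mice 476 and 477. Over all genes tested, 12.4% were called higher and 11.7% lower. Fewer cells of a type and less RNA per cell cannot be told apart in such whole-tissue samples.

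The 39 genes did not move together. After ABT-263, Etfb, Decr1, Pdhb and Hadhb fell and Cpt1b rose (edgeR's quasi-likelihood test with Benjamini-Hochberg adjustment over 17959 genes, adjusted p under 0.05). These 5 were 12.8% of the members, against 24.2% of all genes tested. In the upward direction 1 member passed, with 12.4% of all genes called higher, and in the downward direction 4 members (10.3%) passed, with 11.7% of all genes called lower. The median log2 fold change of the members was -0.04 (quartiles -0.28 and 0.28), beside 0.00 for all genes tested. Of the 34 members that did not pass, 29 had a log2 fold change within 0.5 of 0. For 27 members the 95% interval of the log2 fold change lay within 1 of 0 on either side, as it did for 45.9% of all genes tested. All mice of one treatment lay on one side of all mice of the other for 7 members, whereas 37.1% of all genes tested were separated in this way. The plot of members in each mouse shows this spread by role.

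**Figure D1:**
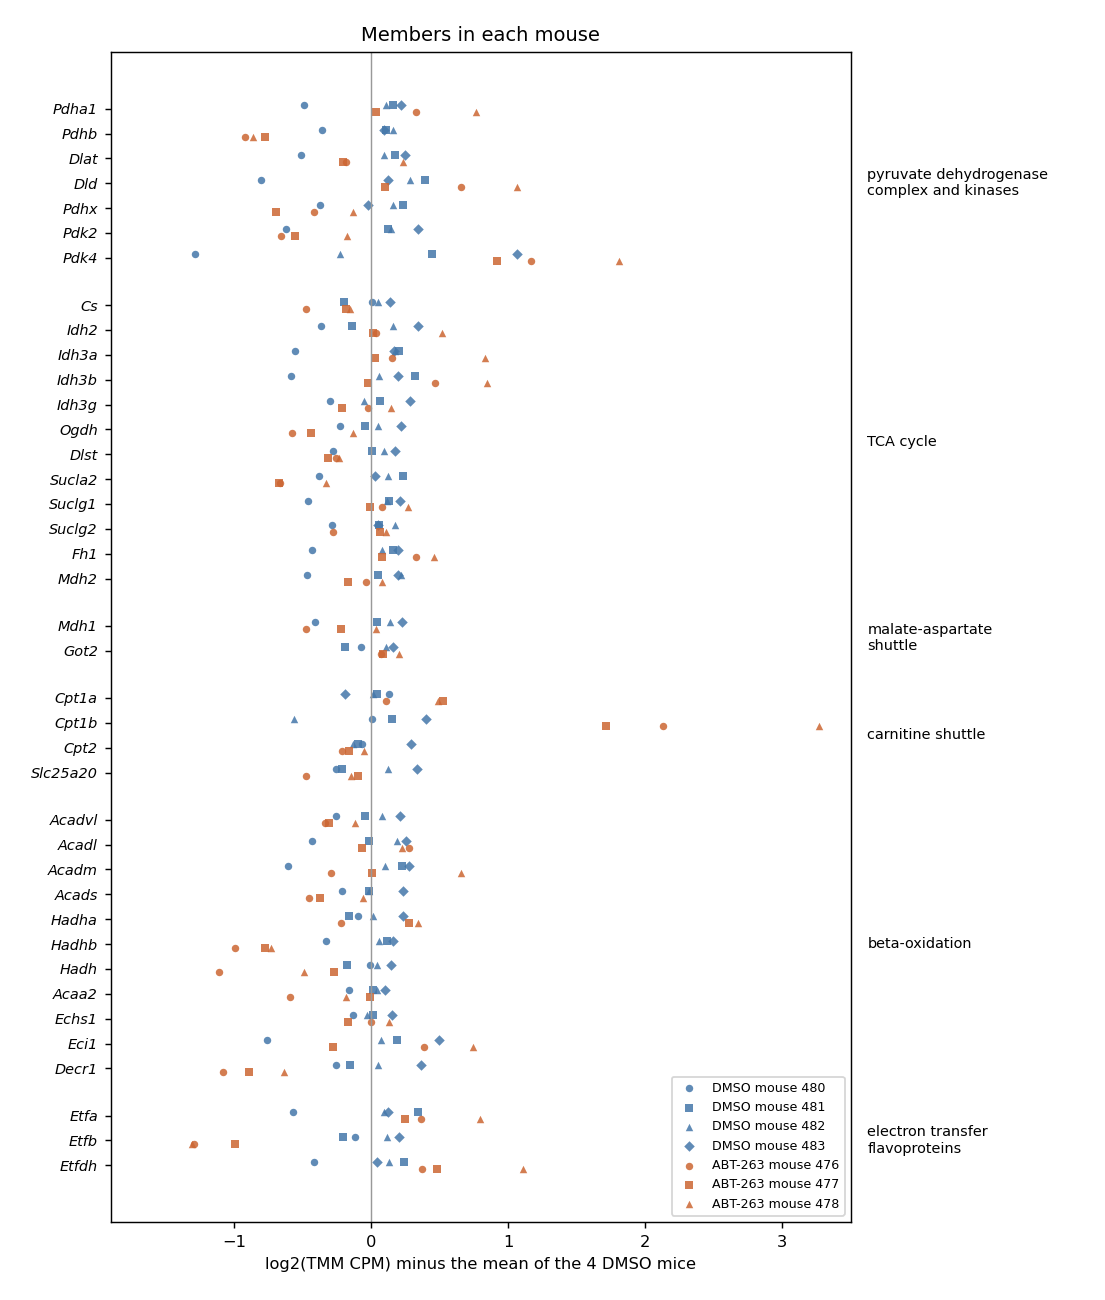
Level of each member in each mouse as log2 TMM-scaled CPM minus the mean of the 4 DMSO mice (blue; ABT-263 in orange), with members grouped by role and a marker shape for each mouse. Most members scatter about 0 in both treatments, while Pdhb, Hadhb, Decr1 and Etfb lie to the left of all DMSO mice and Cpt1b to the right in the 3 ABT-263 mice.

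Mice differed in the level of the whole pathway within a treatment. DMSO mouse 480 was the lowest DMSO mouse for 31 of 39 members and DMSO mouse 483 the highest for 28, and ABT-263 mouse 478 was the highest of its group for 32. The summed muscle markers had their lowest DMSO value in mouse 480 (52505 CPM) and their highest in mouse 483 (101840 CPM), and mouse 478 was the highest ABT-263 mouse for summed muscle (53857 CPM) and adipocyte (4768 CPM) markers. Other tissues differed between these mice too. Mouse 480 had the highest DMSO sums of keratinocyte (70964 CPM), sebaceous gland (8189 CPM) and dermal fibroblast (6639 CPM) markers. Mouse 478 was also the highest ABT-263 mouse for dermal fibroblast (14778 CPM) and hair follicle (504 CPM) markers, and its muscle sum was close to that of mouse 476 (50603 CPM). The part of tissue makeup in the member values was not tested. Per kilobase of exon, and leaving out Cpt1b and Etfb, most of whose exon bases overlap another gene on the same strand, the mean DMSO levels ran from 5.25 CPM per kb for Etfdh and 5.27 CPM per kb for Cpt1a to 134 CPM per kb for Mdh1 and 161 CPM per kb for Acaa2. Acaa2 was also the highest of them on this scale after ABT-263 (136 CPM per kb), and Hadhb the lowest (5.19 CPM per kb).

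Among the 7 genes of the pyruvate dehydrogenase complex and its kinases, 1 fell and 6 did not pass. Pdhb encodes the beta subunit of the pyruvate dehydrogenase component, the enzyme that decarboxylates pyruvate. Pdhb stood at 133, 185, 192 and 183 CPM in the DMSO mice and at 90.7, 100.2 and 94.2 CPM in the ABT-263 mice. All 3 ABT-263 mice were below the lowest DMSO mouse, which was mouse 480. Pdhb fell 1.82-fold (log2 fold change -0.86, standard error 0.16, adjusted p = 0.0108 from edgeR). Its partner in the same tetramer is Pdha1, the X-linked alpha subunit that carries the regulatory phosphorylation sites. Pdha1 was at 121, 189, 183 and 197 CPM after DMSO and 213, 174 and 288 CPM after ABT-263. The groups overlapped (log2 fold change 0.38, standard error 0.23, adjusted p = 0.244).

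Pdk4, the pyruvate dehydrogenase kinase known to be induced by fasting and by fatty acids, had the second highest log2 fold change of the members, 1.11, with a 95% interval of -0.05 to 2.27 (adjusted p = 0.138 from edgeR). Its values were 32.7, 109, 68.1 and 167 CPM after DMSO and 179, 151 and 279 CPM after ABT-263. DMSO mouse 483 lay within the ABT-263 range and the DMSO mice themselves were widely spread. Pdk2, the kinase expressed in most tissues, was at 132, 221, 225 and 258 CPM after DMSO and 129, 138 and 180.0 CPM after ABT-263. The groups overlapped through DMSO mouse 480 (log2 fold change -0.49, adjusted p = 0.165). Dlat, the acetyltransferase core (-0.06), Dld, the dehydrogenase shared with the oxoglutarate complex (0.59), and Pdhx, which binds that dehydrogenase to the core (-0.41), did not pass either.

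None of the 12 TCA cycle genes passed the threshold in edgeR, and their median log2 fold change was -0.03. Sucla2 was the 1 gene with an unadjusted p under 0.05, and the 1 that DESeq2's Wald test called (lower). The values ran from -0.56 for Sucla2 (adjusted p = 0.0532) to 0.43 for Idh3b (adjusted p = 0.249). Citrate synthase, Cs, which catalyses the entry step, was not called (log2 fold change -0.27, standard error 0.16, adjusted p = 0.243). The 3 subunits of the NAD-dependent isocitrate dehydrogenase were at 0.35 (Idh3a), 0.43 (Idh3b) and -0.04 (Idh3g), and the NADP-dependent Idh2 at 0.19. The oxoglutarate dehydrogenase genes Ogdh and Dlst were at -0.38 and -0.27, fumarase Fh1 at 0.28, malate dehydrogenase Mdh2 at -0.06 and Suclg1, the alpha subunit shared by the succinyl-CoA ligases, at 0.10. In the malate-aspartate shuttle, which carries cytosolic NADH electrons inward, cytosolic malate dehydrogenase Mdh1 (-0.22) and mitochondrial aspartate aminotransferase Got2 (0.12) did not pass, nor with the Wald test or at an unadjusted p under 0.05.

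Sucla2 and Suclg2 encode the alternative beta subunits that make succinyl-CoA ligase form ATP or GTP. Sucla2 was at 148, 227, 210.3 and 197 CPM after DMSO and 122, 121 and 154 CPM after ABT-263. Only DMSO mouse 480 lay within the ABT-263 range. Suclg2 was at 21.4, 27.2, 29.4 and 27.0 CPM after DMSO and 21.5, 27.3 and 28.2 CPM after ABT-263, and its groups overlapped (log2 fold change -0.03, standard error 0.16). Got2 and Suclg2 each have a near-identical processed pseudogene that was counted apart from them, Got2-ps1 (99.1% identical over 1293 bases) and Gm15163 (98.9% over 1302 bases), so that the assignment of their reads is uncertain. With these counts added, the log2 fold changes were 0.34 for Got2 and 0.17 for Suclg2, and neither passed.

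Of the 4 carnitine shuttle genes, Cpt1b rose and 3 did not pass. Carnitine palmitoyltransferase, at the outer membrane, makes the carnitine esters in the rate-limiting step of fatty acid entry. Cpt1b encodes the form of muscle and brown fat and Cpt1a the form of liver and most other tissues. Cpt1b was at 0.532, 0.590, 0.359 and 0.698 CPM in the DMSO mice and 2.32, 1.74 and 5.11 CPM in the ABT-263 mice. Every ABT-263 mouse was above every DMSO mouse, with mouse 478 the highest, but the counts were low throughout, at 7 to 238 per library. The rise was 5.56-fold (log2 fold change 2.48, standard error 0.45, adjusted p = 0.0106 from edgeR), and the log2 fold change was 1.89 without ABT-263 mouse 478. It stood beside summed skeletal muscle markers whose ABT-263 range lay mostly below the DMSO range. Adipocyte markers had a median log2 fold change of 0.48, with 0 of 12 called in edgeR, and the part of either tissue was not tested. On the same strand, 81.4% of the exon bases of Cpt1b overlap Gm44502, a gene listed at 0 counts in every mouse. The assignment of reads in the shared bases is uncertain, so that the counts may not reflect the whole gene.

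Cpt1a was at 44.0, 41.3, 40.5 and 35.1 CPM after DMSO and 43.4, 57.8 and 56.2 CPM after ABT-263. ABT-263 mouse 476 lay within the DMSO range (log2 fold change 0.38, standard error 0.14, adjusted p = 0.0824). Cpt2, which turns the carnitine ester back into acyl-CoA inside, had a log2 fold change of -0.15, and the carnitine-acylcarnitine carrier Slc25a20 of -0.25.

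Among the 11 beta-oxidation genes, Decr1 and Hadhb fell, 9 did not pass, and the median log2 fold change was -0.24. Hadha and Hadhb encode the alpha and beta subunits of the trifunctional protein, the inner-membrane enzyme that carries out the last 3 steps of each round on long chains. The genes lie head to head on chromosome 5. Their promoter windows are shown because the genes share this stretch of DNA while their transcripts differed in response. They come from RefSeq on build GRCm38.p6 (mm10), which gave a window of 300 bases for 35 of the 39 members, from 250 bases before the transcription start to 50 from the start on. The Hadha window is chr5:30154931-30155230 on the minus strand and the Hadhb window chr5:30155003-30155302 on the plus strand, each written 5′ to 3′ on its own strand, with capitals for the 228 bases (30155003 to 30155230) that the windows have in common. In these windows the start bases lie 273 bases apart. In the GENCODE M21 annotation, used here for exon lengths and overlaps, Hadha reaches up to 30155162 and Hadhb begins at 30155248, so that this distance depends on the annotation.

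Hadha: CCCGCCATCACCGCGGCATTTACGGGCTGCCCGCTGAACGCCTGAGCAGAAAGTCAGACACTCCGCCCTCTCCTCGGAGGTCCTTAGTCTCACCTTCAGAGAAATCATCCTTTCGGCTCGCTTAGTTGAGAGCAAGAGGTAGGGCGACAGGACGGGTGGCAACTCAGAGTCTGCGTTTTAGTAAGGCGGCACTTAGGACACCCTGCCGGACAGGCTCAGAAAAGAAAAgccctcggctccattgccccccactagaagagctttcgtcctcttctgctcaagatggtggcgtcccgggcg

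Hadhb: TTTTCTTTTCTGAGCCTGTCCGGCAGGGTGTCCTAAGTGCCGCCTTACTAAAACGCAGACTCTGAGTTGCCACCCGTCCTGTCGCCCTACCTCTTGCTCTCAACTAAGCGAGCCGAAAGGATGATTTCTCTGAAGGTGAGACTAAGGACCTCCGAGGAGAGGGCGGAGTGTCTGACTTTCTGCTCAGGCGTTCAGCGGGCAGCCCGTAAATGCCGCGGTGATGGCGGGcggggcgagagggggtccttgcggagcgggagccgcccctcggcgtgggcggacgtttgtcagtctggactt

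Hadhb was at 48.3, 65.7, 63.0 and 67.6 CPM in the DMSO mice and 30.5, 35.4 and 36.7 CPM in the ABT-263 mice. The highest ABT-263 mouse was below the lowest DMSO mouse, and Hadhb fell 1.79-fold (log2 fold change -0.84, standard error 0.15, adjusted p = 0.0107 from edgeR). Hadha was at 231, 219, 249 and 289.6 CPM after DMSO and 212, 298 and 311 CPM after ABT-263. Its groups overlapped (log2 fold change 0.15, standard error 0.18, adjusted p = 0.579).

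Decr1, the dienoyl-CoA reductase needed to degrade polyunsaturated fatty acids, was at 155, 167, 191 and 238 CPM after DMSO and 87.8, 99.9 and 119 CPM after ABT-263. The groups did not overlap, and Decr1 fell 1.83-fold (log2 fold change -0.88, standard error 0.19, adjusted p = 0.0173 from edgeR). This call was lost without DMSO mouse 482 or without ABT-263 mouse 476, with an adjusted p of up to 0.0545. Hadh, which oxidises hydroxyacyl-CoA of medium and short chains, was lower in all 3 ABT-263 mice (129, 232 and 199 CPM) than in the 4 DMSO mice (277, 246, 287 and 308 CPM). It did not pass the test (log2 fold change -0.58, standard error 0.21, adjusted p = 0.0739).

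The acyl-CoA dehydrogenases, which start each round on chains of different length, had log2 fold changes of -0.26 for Acadvl (very long), 0.13 for Acadl (long), 0.14 for Acadm (medium) and -0.29 for Acads (short). The hydratase Echs1 was at -0.01, the thiolase Acaa2 at -0.24 and the enoyl-CoA isomerase Eci1 at 0.28. The adjusted p-values of these 7 genes ran from 0.188 for Acads to 0.960 for Echs1, and their groups overlapped.

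Of the 3 electron transfer flavoprotein genes, Etfb fell and Etfa and Etfdh did not pass. Etfa and Etfb encode the subunits of the dimer that collects electrons from the acyl-CoA dehydrogenases, and Etfdh the membrane enzyme that passes them to ubiquinone. The RefSeq windows of Etfb and of Pdhb, the members with the lowest adjusted p-values among those that fell, apart from Hadhb above, are given for reference. They are chr7:43443822-43444121 on the plus strand and chr14:8172943-8173242 on the minus strand of the same build, with the 50 bases from the start on in capitals.

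Etfb: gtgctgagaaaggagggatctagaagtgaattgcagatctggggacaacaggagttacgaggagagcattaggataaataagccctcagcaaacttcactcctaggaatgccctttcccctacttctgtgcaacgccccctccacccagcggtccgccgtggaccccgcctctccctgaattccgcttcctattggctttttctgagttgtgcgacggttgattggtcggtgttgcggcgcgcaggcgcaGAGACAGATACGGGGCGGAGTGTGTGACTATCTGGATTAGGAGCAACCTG

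Pdhb: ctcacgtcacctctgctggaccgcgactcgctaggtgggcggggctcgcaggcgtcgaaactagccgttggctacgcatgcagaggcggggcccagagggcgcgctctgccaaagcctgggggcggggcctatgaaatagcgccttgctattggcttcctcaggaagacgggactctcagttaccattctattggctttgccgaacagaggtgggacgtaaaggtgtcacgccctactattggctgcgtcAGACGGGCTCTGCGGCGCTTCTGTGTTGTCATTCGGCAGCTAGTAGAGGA

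Etfb was at 193, 182, 227 and 241 CPM after DMSO and 85.4, 105 and 84.8 CPM after ABT-263. All ABT-263 mice were well below all DMSO mice, and Etfb fell 2.30-fold (log2 fold change -1.20, standard error 0.16, adjusted p = 0.00628 from edgeR), the lowest adjusted p of the members. Of its exon bases, 58.3% overlap Gm45233 and the microRNA gene Mir7051, and Gm45233 is listed at 0 counts in every mouse. The assignment of reads in these shared bases is uncertain, so that the Etfb counts may not reflect the whole gene. Etfa was at 55.3, 104, 87.6 and 89.3 CPM after DMSO and 106, 97.1 and 142 CPM after ABT-263, overlapping through mice 481 and 477 (log2 fold change 0.45, standard error 0.23, adjusted p = 0.177). Etfdh was at 29.1, 45.9, 42.6 and 40.2 CPM after DMSO and 50.2, 54.4 and 83.9 CPM after ABT-263. Its groups did not overlap, but it did not pass (log2 fold change 0.67, standard error 0.22, adjusted p = 0.0577).

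Partner transcripts were then set against each other directly. For 6 pairs of isoforms or subunits, the log2 ratio of the CPM values (pseudocount 0.5) was compared between treatments with a two-sided exact permutation test over the 35 splits of the mice. The log2 ratio was higher after ABT-263 by 1.23 for Pdha1 over Pdhb, 0.96 for Hadha over Hadhb, 1.66 for Etfa over Etfb, 1.75 for Pdk4 over Pdk2 and 1.29 for Cpt1b over Cpt1a, and it was lower for Sucla2 over Suclg2 (difference -0.52). The DMSO level of Cpt1b is near the pseudocount, and with a pseudocount of 0.1 its difference was 1.80. The groups of mice did not overlap in any of the 6 ratios, and each gave an exact p of 0.0286 (0.0286 after adjustment over the 6), the smallest that this design allows. Pdhb, Hadhb, Etfb and Cpt1b were already separated between treatments on their own, so that the ratios holding them are not independent of those genes' calls. Of all 741 pairs that can be formed from the members, 357 (48.2%) had ratios that did not overlap between treatments, so that a separated ratio was common in this list. The ratio of Hadha to Hadhb was 2.01 ± 0.22 (log2, mean ± SD, n = 4) after DMSO and 2.96 ± 0.17 (n = 3) after ABT-263. The ratio of Pdha1 to Pdhb was -0.02 ± 0.11 and 1.21 ± 0.41, and that of Etfa to Etfb -1.35 ± 0.41 and 0.31 ± 0.43.

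**Figure D2:**
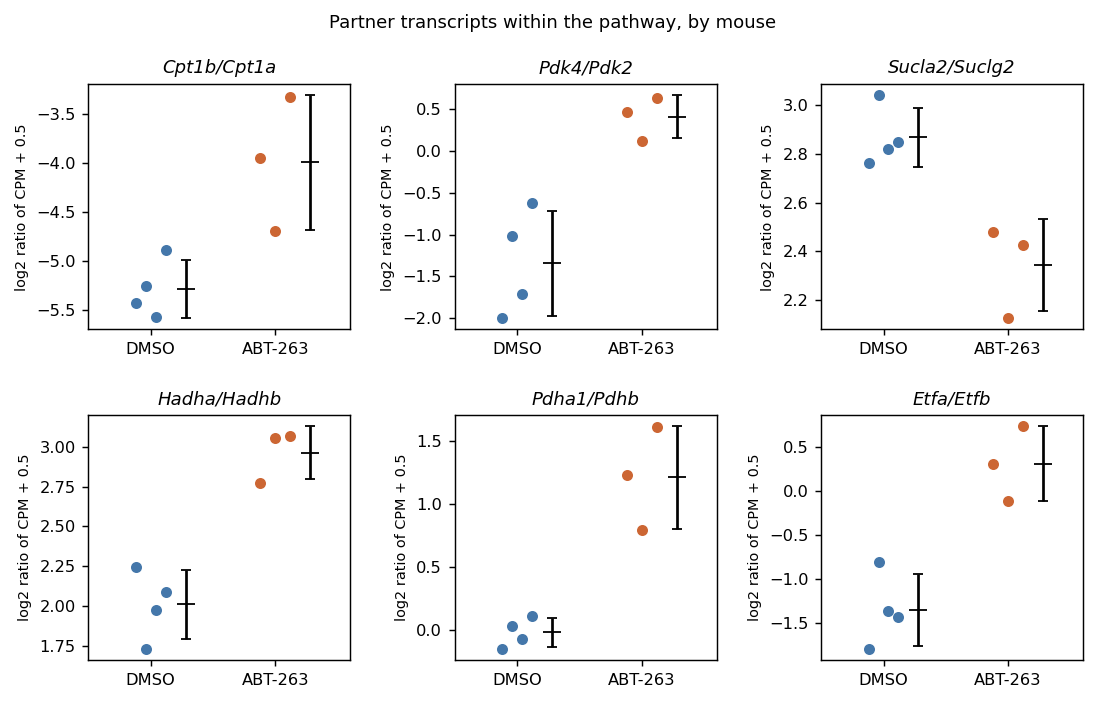
Log2 ratio of the TMM-scaled CPM (plus 0.5) of partner transcripts in each mouse, with DMSO in blue, ABT-263 in orange and the mean ± SD of each group in black. The treatments are separated in all 6 panels, with the ratio higher after ABT-263 in all but Sucla2 over Suclg2 (difference -0.52).

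The nuclear-encoded subunits of respiratory complexes I and III to V, to which the matrix enzymes pass electrons, were mostly lower after ABT-263. Of 75 subunit genes tested, 50 fell and none rose in edgeR (66.7%, beside 11.7% of all genes called lower), with a median log2 fold change of -0.70. At an unadjusted p under 0.05, 2 were higher, and the Wald test called 53 lower and 1 higher. The count of 50 was 32 without DMSO mouse 482, 33 without ABT-263 mouse 476 and 29 without ABT-263 mouse 478, while the median stayed between -0.78 and -0.64 over all alternatives run. In complex I 27 of 36 were lower (median -0.71), and in complexes III to V 23 of 39 (median -0.70). The subunits ranged from Ndufa5 (-1.47, adjusted p = 0.00578) to Atp5j (0.64, adjusted p = 0.0683). For 30 of the 39 members the 95% interval of the log2 fold change lay wholly above the chain's median, as it did for 58.8% of all genes tested. Skeletal muscle markers, from a tissue rich in respiratory chain, had a median log2 fold change of -0.80 with 8 of 18 lower, and the subunits that fell included the muscle forms Cox6a2 (-1.22), Cox8b (-1.17) and Cox7a1 (-1.22), named after their values were seen. The part of muscle content in the chain's values was not tested.

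Other mitochondrial gene groups had medians in between. Of 77 mitochondrial ribosome genes 24 fell and 2 rose (Mrpl3 and Mrps22), with a median of -0.33. Of 34 genes of the outer membrane, carriers and protein import 9 fell and 2 rose (Timm23 and Slc25a5), with a median of -0.34. Of 25 matrix chaperone, protease and DNA maintenance genes 5 fell (Clpp, Txn2, Twnk, Mterf1a and Tsfm) and 3 rose (Clpx, Afg3l2 and Grpel1), with a median of -0.26. Clpx and Clpp encode the unfoldase and the protease of the same matrix machine and moved in opposite directions. Clpx rose by 0.75 (log2, standard error 0.16, adjusted p = 0.0179) and Clpp fell by 0.47 (log2, standard error 0.12, adjusted p = 0.0265). Glycolysis had 2 of 17 genes higher (Pgam1 and Pfkp) and 1 lower (the muscle form Pgam2), with a median of -0.01. Genes called in either direction made up 33.8% of the ribosome list, 32.4% of the outer membrane list, 32.0% of the chaperone list and 17.6% of glycolysis. Of all genes tested, 24.2% were called. The plot of log2 fold changes by list sets these groups side by side.

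**Figure D3:**
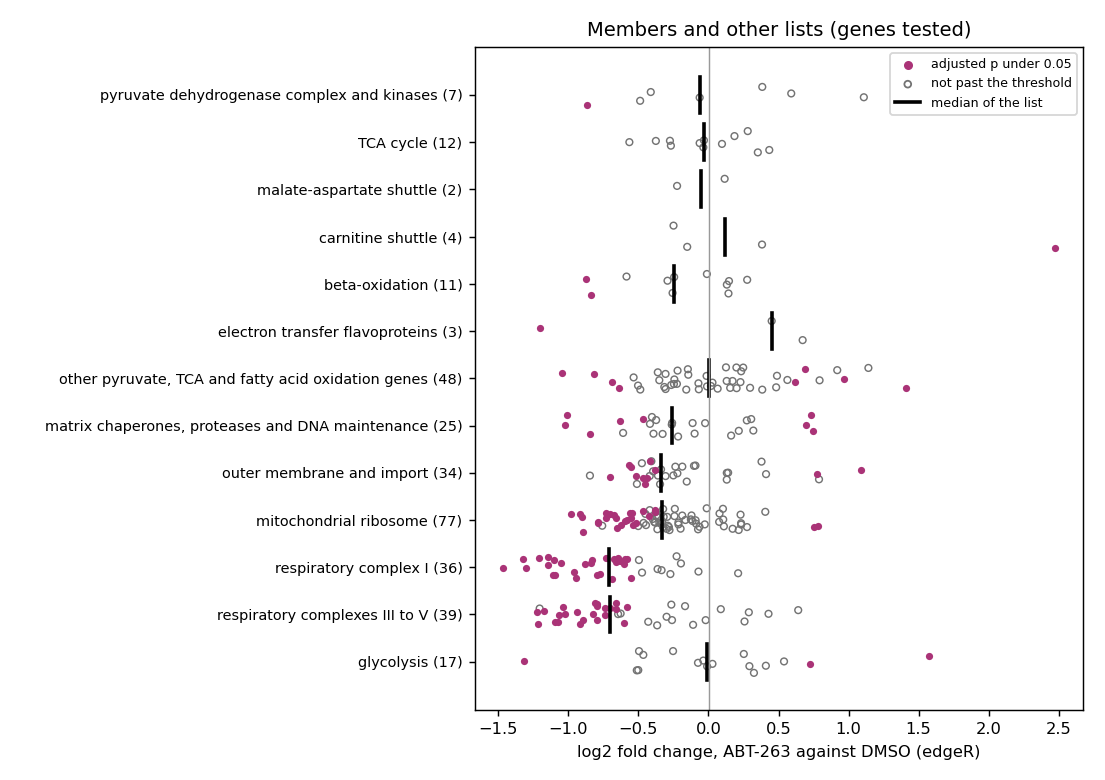
Log2 fold change of each gene tested, ABT-263 against DMSO, for the 6 role groups of members, the other pathway genes, the other mitochondrial groups and glycolysis, with the number tested in brackets. Filled points passed an adjusted p of 0.05 in edgeR, and black bars are medians, which lie at -0.71 and -0.70 for the respiratory complexes, at -0.03 for the TCA cycle and at -0.24 for beta-oxidation.

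The summed transcripts gave the same contrast mouse by mouse. The 39 members summed to 4919, 6085, 6416 and 7001 CPM in the DMSO mice and to 5069, 5296 and 6461 CPM in the ABT-263 mice, and the groups overlapped. The 75 chain subunits summed to 21852, 24074, 27492 and 27369 CPM after DMSO and to 15966, 16689 and 16095 CPM after ABT-263, with no overlap. The ratio of members to chain was 0.225, 0.253, 0.233 and 0.256 after DMSO and 0.318, 0.317 and 0.401 after ABT-263. Every ABT-263 mouse was above every DMSO mouse in this ratio, including mouse 478, whose member sum was the highest of its group. The chain sums were separated on their own, so that the separation of this ratio need not be particular to the members. The other genes of these pathways also had overlapping sums, at 4117 to 5323 CPM after DMSO and 3743 to 4733 CPM after ABT-263.

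**Figure D4:**
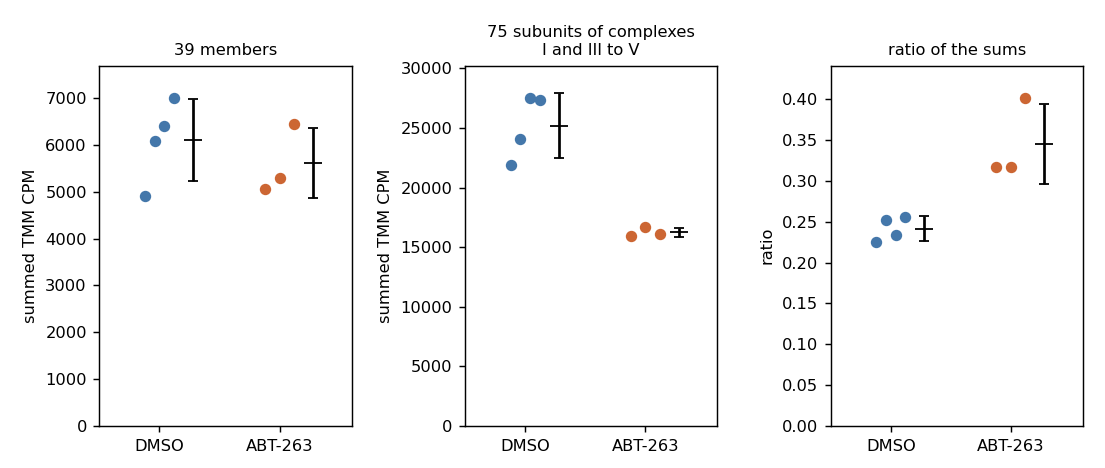
Summed TMM-scaled CPM of the 39 members and of 75 respiratory chain subunits, and their ratio, in each mouse (DMSO blue, ABT-263 orange, mean ± SD in black; all axes start at 0). The member sums overlap, the chain sums do not (at least 21852 CPM after DMSO, at most 16689 CPM after ABT-263), and the ratio is at most 0.256 after DMSO and at least 0.317 after ABT-263.

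To ask of each gene whether it changed by another factor than the chain, the test was repeated with the summed chain counts in place of the library sizes. This scaling raised the median log2 fold change of all genes tested to 0.62, and 47.1% of them passed, 44.7% higher and 2.41% lower than the chain. The chain was not uniform on this scale, as 10 of its 75 subunits were higher than the summed chain and 9 lower. Of the 39 members, 23 (59.0%) were higher than the chain, 1 was lower and 15 passed in neither direction, and the members' median was 0.60, close to that of all genes. Without ABT-263 mouse 478 the count of 23 was 15. With the mitochondrial ribosome genes as the reference, 15 members were higher and 2 lower, beside 33.3% and 4.29% of all genes tested, and the medians were 0.39 for the members and 0.42 for all genes. The members that were higher included 8 of 12 TCA cycle genes, 4 of 7 pyruvate dehydrogenase genes, 5 of 11 beta-oxidation genes and 3 of 4 carnitine shuttle genes. Citrate synthase was not among them (log2 fold change relative to the chain 0.36, standard error 0.18, adjusted p = 0.129).

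Those at the low end were the members that had fallen on the ordinary scale. Hadhb (-0.20), Pdhb (-0.23) and Decr1 (-0.24) did not differ from the chain by the test, with adjusted p-values of 0.281, 0.232 and 0.288 in edgeR. Etfb fell relative to the chain as well (log2 fold change -0.57, standard error 0.16, adjusted p = 0.0159 from edgeR), although this call was lost without ABT-263 mouse 476 or 478. At the other end Cpt1b (3.10), Pdk4 (1.78) and Etfdh (1.31) had the largest values, and all of them passed.

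**Figure D5:**
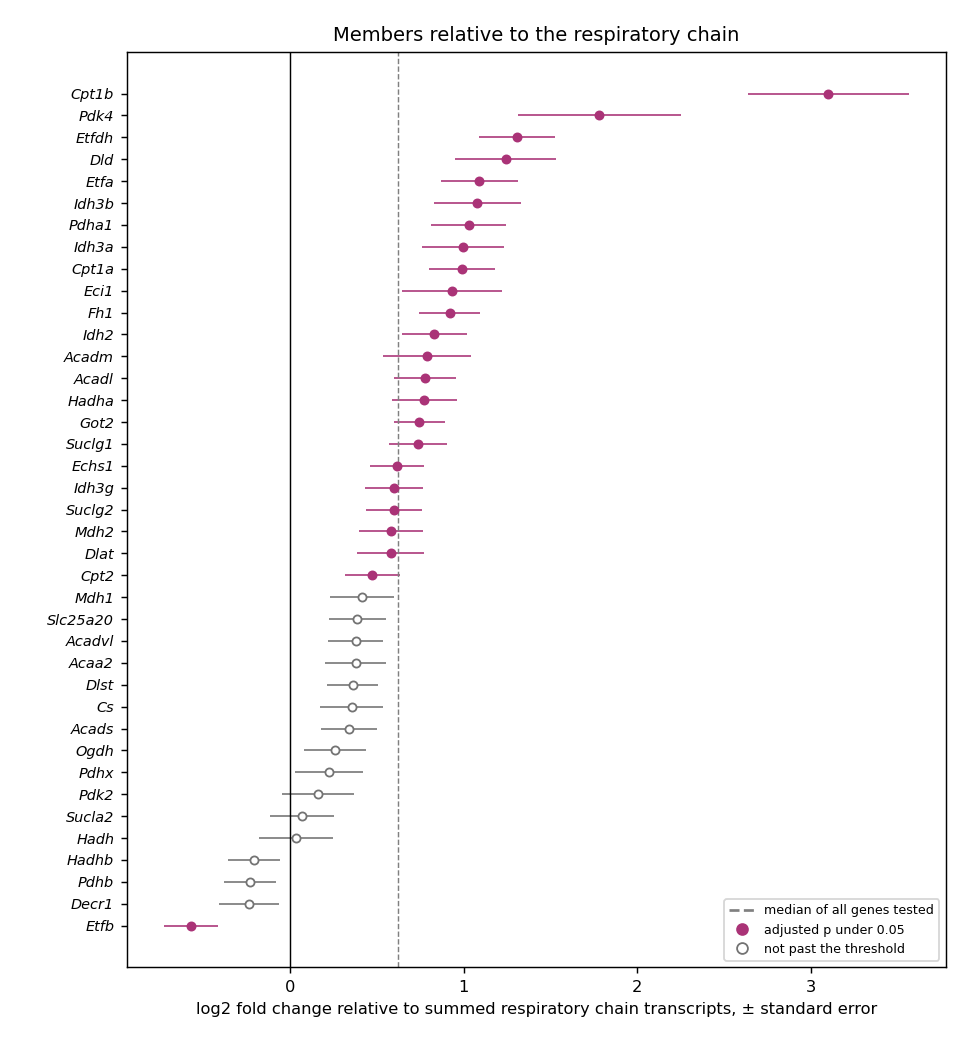
Log2 fold change of each member relative to the summed respiratory chain transcripts (ABT-263 against DMSO, points, with standard errors as bars), in order of size. Filled points passed an adjusted p of 0.05, 23 of them above 0 and Etfb below, and the dashed line is the median of all genes tested, 0.62.

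The other genes of these pathways had a median log2 fold change of 0.00, with 4 of 48 higher and 4 lower. The share called was 16.7%, below the 24.2% of all genes tested. Those that rose included Acsl1 (0.97), which activates long fatty acids to acyl-CoA, Ehhadh (1.41), which acts in beta-oxidation in peroxisomes, and Me2 (0.62), the mitochondrial malic enzyme. Ehhadh was at 1.96, 2.49, 1.54 and 2.96 CPM after DMSO and 5.33, 3.98 and 8.57 CPM after ABT-263. All ABT-263 mice were above all DMSO mice (standard error 0.34, adjusted p = 0.0227 from edgeR). Those that fell were the citrate carrier Slc25a1 (-1.04), the ketone body enzyme Oxct1 (-0.64), the lipoic acid synthase Lias (-0.69) and Pdp2 (-0.82), a phosphatase that reactivates pyruvate dehydrogenase. Lipoic acid is the cofactor of Dlat and Dlst, and Lias was at 67.1, 71.6, 77.7 and 74.2 CPM after DMSO and 42.3, 47.2 and 45.6 CPM after ABT-263, with no overlap (standard error 0.11, adjusted p = 0.00826).

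Among 29 regulators known to act on these genes, 4 fell and 2 rose, with a median of -0.15. The share called was 20.7%, beside 24.2% of all genes tested, and 13.8% were lower, beside 11.7%. The calls below are therefore not more frequent than among genes at large. The coactivator Ppargc1b fell (log2 fold change -1.20, standard error 0.15, adjusted p = 0.00622), from 18.2, 18.2, 22.0 and 22.1 CPM after DMSO to 9.19, 9.10 and 8.08 CPM after ABT-263. Foxo1 (-0.90), known to drive Pdk4, the corepressor Ncor1 (-1.02) and the muscle factor Mef2c (-1.29) fell too, and the subunits of GA-binding protein, Gabpa (0.80) and Gabpb1 (0.51), rose. Ppargc1a (-0.73, adjusted p = 0.135), Ppara (-0.88, adjusted p = 0.133), Pparg (0.81, adjusted p = 0.101) and Esrra (-0.12, adjusted p = 0.610) did not pass.

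Binding motifs of such regulators were searched on both strands of the RefSeq windows of the 35 members that had one. The estrogen-related receptor element TCAAGGTCA was in none of them, beside 0.423% of all 32851 windows. The NRF1 motif GCGCATGCG was in the windows of Acadm, Etfdh and Ogdh (1.75% of all windows), and the GA-binding protein motif CCGGAAGTG in those of Cpt2 and Dlst (2.03% of all windows). The nuclear receptor half-site AGGTCA, which is contained in the first of these motifs, was in the windows of 9 members (16.3% of all windows). Of the 4 members that fell, Etfb, Pdhb and Hadhb had none of these motifs in the window searched, and Decr1 had no window.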

How the data were processed

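Whole-skin RNA from 7 mice was sequenced, and the labels number the mice. The authors deposited raw counts per Ensembl gene, made with STAR 2.7.9a on mm10 and featureCounts (Subread 1.6.2) from uniquely aligned proper pairs on the sense strand, with mitochondrially encoded genes left out. Reads shared with a near-identical copy are lost or split by such counting. A table of variance-stabilised values was not used. edgeR 4.0.16 (R 4.3.3) filtered low genes by group, scaled libraries by TMM and fitted a robust quasi-likelihood model with treatment as its only factor. p-values were adjusted over all 17959 genes and called under 0.05. Tests relative to the respiratory chain took the summed chain counts as library size. Intervals are 95%. Values in every mouse were given for members past the threshold or with an absolute log2 fold change over 1 and for their partners, and from other lists the extremes and short lists of called genes were named, apart from a gene that is not reported here. Hadh, Etfdh, Sucla2, Suclg2, Ehhadh, Lias, Ppargc1b, Cox6a2, Cox8b and the pseudogenes were chosen for such detail after their values were seen. The members and lists were chosen with earlier results of these data known. Fits were tested on simulated data. Alternatives were the DESeq2 1.42.0 Wald test and size factors, other filters, protein-coding genes only, removal of length and GC trends, the mitochondrial ribosome as reference, another pseudocount, and leaving out each mouse. Pseudogene counts added to their parents, and the alternatives for the chain itself, were added after seeing the data.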

Additional observations from a re-analysis of the deposited data

Results flagged for a closer look

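In the 4 DMSO mice, the gap of the highest or lowest mouse to its neighbour, as a share of the whole range, was compared with Dixon's 95% critical value for 63 measures, of which chance gives about 3.15 and 4 exceeded it. Mouse 480 stood apart as the lowest DMSO mouse for Pdhb (gap ratio 0.844, 133 CPM against 183 to 192 CPM) and for Idh3a (0.939, 54.2 CPM against 89.6 to 91.9 CPM). Mouse 483 stood apart as the highest for Cpt2 (0.859, 69.8 CPM against 51.9 to 54.5 CPM). Mouse 481 stood apart for the summed hair follicle markers (0.996, 2837 CPM against 32.1 to 43.4 CPM). The groups of 3 ABT-263 mice were not examined in this way.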

How the results depend on the processing

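Over 14 alternatives, the calls of Pdhb, Hadhb and Etfb held in all, that of Cpt1b in the 13 in which it was tested, and that of Decr1 in 12. The number of members called was 5, it was 8 with the DESeq2 Wald test, which called 5693 genes in all, and it ran from 4 to 7 when each mouse was left out. Members called higher numbered 2 with the Wald test, 2 with every gene that had a count and 0 with at least 10 counts in every library, a filter that removes Cpt1b. The calls gained under some alternatives were those of Sucla2, Hadh, Etfdh and Pdk2. The median of the members ran from -0.13 to 0.04. Leaving out each mouse gave 29 to 56 chain subunits called lower. Relative to the mitochondrial ribosome, 15 members were higher and 2 lower, with a median of 0.39, beside 33.3% and 4.29% of all genes tested and their median of 0.42. Relative to the chain, leaving out each mouse gave 15 to 24 higher and 0 to 1 lower. The causes of these shifts were not tested.

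Log2 fold changes near 0 that never passed changed sign. Echs1 was at 0.0035 with the Wald test, 0.022 with every gene that had a count and -0.080 to 0.090 with a mouse left out. Suclg2 was at 0.0016 with every gene that had a count, 0.17 with its copy added and -0.12 to 0.086 with a mouse left out. Leaving out each mouse gave -0.036 to 0.18 for Suclg1, -0.16 to 0.34 for Acadm, -0.20 to 0.025 for Mdh2, -0.21 to 0.039 for Dlat and -0.13 to 0.076 for Idh3g.

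With a mouse left out, the exact tests of the 6 ratios could not go below 0.1 or 0.0667, so that none could pass, but the groups kept their direction. The differences ran from 0.96 to 1.64 for Cpt1b over Cpt1a, 1.53 to 1.99 for Pdk4 over Pdk2, -0.59 to -0.41 for Sucla2 over Suclg2, 0.86 to 1.05 for Hadha over Hadhb, 1.03 to 1.43 for Pdha1 over Pdhb and 1.44 to 1.87 for Etfa over Etfb. No paired analysis was possible because the treatments share no mouse numbers. With 4 and 3 mice, the wide intervals of Pdk4, Dld and Eci1 allow changes in either direction, and the larger ABT-263 libraries mean that the counting error of low genes such as Cpt1b was greater after DMSO.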

Other observations

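The processed pseudogene copies of Got2 and Suclg2, which lie outside the member list, rose after ABT-263 while their parent genes did not pass the test. Got2-ps1 rose by 2.56 on the log2 scale in edgeR (standard error 0.24, adjusted p = 0.00578), and its counts were 2.84% to 5.46% of those of Got2 in the DMSO mice and 16.2% to 26.6% in the ABT-263 mice. Gm15163 rose by 2.60 on the same scale (standard error 0.40, adjusted p = 0.00747), at 1.75% to 4.41% of the Suclg2 counts after DMSO and 10.6% to 24.7% after ABT-263. In both, no ABT-263 mouse lay within the DMSO range. Of the 4 tested genes that match a member at 95% identity or more over at least 200 bases, these 2 passed. Over all genes tested, 12.4% were called higher. The copy of Etfa, Gm15289, did not pass (log2 fold change -0.10, adjusted p = 0.905 from edgeR). Tnfrsf22, which matches Slc25a20 over 227 bases, did not pass either (log2 fold change 0.29, adjusted p = 0.403 from edgeR).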
